A study of Mus musculus with 4 samples.

Results

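The genes described here are the solute carriers expressed in splenic CD4+ T cells, the genes that encode the membrane transporters named *Slc* with a family number and a member number. Of 55367 gene symbols counted in each library, 354 fitted this pattern of name, and 2 of them, *Slc22a4* and *Slc22a5*, were left out by name. Of the remaining 352, 149 had at least 100 counts summed over the 4 libraries and form the set, which was thus chosen by name and by summed count. The other 203 fell under that minimum, and 97 of these had no count in any library. The minimum uses the sum over all libraries and not the contrast of genotypes, but a gene silent in one genotype could pass only through the other. For 9 members the count of the lower genotype, doubled, would not have reached the minimum, and 3 of these are among the genes called below, *Slc28a2b*, *Slc15a2* and *Slc9a7*.

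RNA from sorted CD4+ T cells of the spleen of C57BL/6 mice was sequenced in 4 libraries, 2 from wild type (WT) and 2 from *Satb1* conditional knockout (cKO) mice. In the cKO, both *Satb1* alleles carry loxP sites (*Satb1* F/F), and the paper uses *Thpok-cre* to delete *Satb1* once thymocytes commit to the CD4 lineage. By this design conventional and regulatory CD4+ T cells are both targeted and earlier thymocytes are not. SATB1 is a nuclear protein that binds AT-rich DNA and organises chromatin in T cells, and the comparison asks which transcripts depend on it after commitment. The mice were untreated young adults, and the methods give mixed sexes for the study as a whole, with no sex for a library. The libraries are named as biological replicates with no statement of which animal each came from, so that the p-values below measure the spread between these libraries only.

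Total gene counts lay between 4495902 and 6555699 per library, and 59.4% to 64.5% of singly aligned reads fell outside the counted features. Whether those reads lay in introns or between genes was not analysed here. *Satb1* itself gave 868 and 984 CPM (counts scaled to a library of 1e+06) in WT 1 and WT 2 and 945 and 847 CPM in cKO 1 and cKO 2, so its count over the whole gene did not separate the labels, and every direction below follows the labels. Reads over single exons of *Satb1* were not analysed here. The counts of *Xist* were 5447 and 4235 in WT but 9 and 6 in cKO, while *Ddx3y* of the Y chromosome had none in WT and 525 and 597 in cKO. A difference by genotype and a difference by this sex-linked pattern cannot be told apart in these libraries. Markers of T cells summed to between 4766 and 5487 CPM, and 1 of the 6, *Zbtb7b*, was called higher, at 232 and 200.3 CPM in WT and 337 and 345 CPM in cKO. Markers of B cells summed to 43.7 and 56.5 CPM in WT and 231 and 90.3 CPM in cKO, with 10 of 10 higher on average in cKO. Of these, *Pax5* and *Cd74* were called higher, and *Cd74* alone gave 22.9 and 27.1 CPM in WT and 115 and 46.8 CPM in cKO. Markers of myeloid cells summed to 34.6 and 43.2 against 112 and 65.3 CPM, with 8 of 10 higher and *Lyz2*, *S100a9*, *Ltf* and *Cybb* called higher. Natural killer cell markers went the other way, at 35.2 and 34.5 against 10.3 and 13.8 CPM, with 1 of 4 higher in cKO and *Nkg7* called lower, as did those of CD8+ T cells, at 47.7 and 58.5 against 34.3 and 26.8 CPM, with *Cd8b1* called lower and *Cd8a* not called. Erythroid markers varied between libraries of 1 genotype, at 101 and 314 CPM in WT and 10.1 and 222 CPM in cKO. No marker of these lists was at 0 in both WT libraries except 1 platelet marker. *Foxp3*, the gene that marks regulatory T (Treg) cells in WT, was at 142 and 121 CPM in WT and 405 and 547 CPM in cKO. The paper reports that *Foxp3* is also derepressed in conventional CD4+ T cells without SATB1, so its level does not measure Treg number here. The part of these cell markers in the results on carriers was not tested. In bulk RNA, fewer cells of a type and less RNA per cell cannot be told apart.

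Solute carriers move small molecules across the plasma membrane and the membranes of organelles, as facilitators that follow a gradient or as cotransporters and exchangers that couple it to the gradient of an ion. A resting T cell lives on a low flux of glucose, amino acids and nucleosides and raises its uptake when its receptor is engaged, by adding glucose and amino acid carriers to its surface. Monocarboxylate carriers pass lactate and pyruvate, nucleoside carriers serve the salvage of purines and pyrimidines, and the mitochondrial carrier family joins the cytosol to the matrix. By substrate, the set held 43 nutrient carriers, 44 ion carriers, 36 mitochondrial carriers of the *Slc25* family, 11 carriers of nucleosides, nucleobases, nucleotides or nucleotide sugars, 5 monocarboxylate carriers and 6 carriers of other organic molecules. The remaining 4 fit the name but are not carriers. These are *Slc9a3r1*, a scaffold protein, *Slc4a1ap* and *Slc7a6os*, named after a neighbour or partner, and the pseudogene *Slc2a4rg-ps*.

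RefSeq promoter sequences on GRCm38.p6 were found for 109 of the 149 members and for 9 of the 12 members called below. Those of 4 called members are shown over the 250 bases before the RefSeq start of the gene, on the gene's own strand. For *Slc28a2* and *Slc16a1* the RefSeq start lies slightly before the GENCODE start given with the values below. *Slc28a2* and *Slc28a2b* lie close together and both fell, *Slc16a1* is a monocarboxylate carrier that fell, and *Slc15a2* had the largest rise. Capitals mark every match, on either strand, to the E-box CACGTG, the GC box GGGCGG, the TATA box TATAAA, the CCAAT box CCAAT or the forkhead letters TGTTTAC.
Slc28a2 (chr2:122426185-122426434, plus strand): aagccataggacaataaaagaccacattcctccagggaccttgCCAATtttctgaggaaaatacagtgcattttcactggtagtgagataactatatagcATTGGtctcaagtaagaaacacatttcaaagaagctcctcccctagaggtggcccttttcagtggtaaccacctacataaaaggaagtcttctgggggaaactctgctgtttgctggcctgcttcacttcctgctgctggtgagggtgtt
Slc28a2b (chr2:122484691-122484940, plus strand): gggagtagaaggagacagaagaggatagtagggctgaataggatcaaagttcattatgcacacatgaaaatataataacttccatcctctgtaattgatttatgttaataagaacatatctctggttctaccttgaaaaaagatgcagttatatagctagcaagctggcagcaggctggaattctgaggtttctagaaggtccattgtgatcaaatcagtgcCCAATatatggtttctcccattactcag
Slc16a1 (chr3:104638414-104638663, plus strand): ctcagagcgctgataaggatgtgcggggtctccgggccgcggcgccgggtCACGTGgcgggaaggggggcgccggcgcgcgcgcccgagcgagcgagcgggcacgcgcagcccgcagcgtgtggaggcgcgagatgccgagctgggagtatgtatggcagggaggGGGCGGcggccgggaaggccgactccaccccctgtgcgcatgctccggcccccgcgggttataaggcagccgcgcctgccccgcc
Slc15a2 (chr16:36784963-36785212, minus strand): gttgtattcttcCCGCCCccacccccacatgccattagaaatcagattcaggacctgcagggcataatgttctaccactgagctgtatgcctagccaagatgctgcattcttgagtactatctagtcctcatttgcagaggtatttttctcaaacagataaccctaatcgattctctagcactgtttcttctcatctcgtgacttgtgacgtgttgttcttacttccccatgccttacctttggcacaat

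The promoter of *Slc28a2* held 2 CCAAT boxes and that of *Slc28a2b* held 1. Over all 32851 promoters of the same length, 33.8% had a CCAAT box, 32.7% a GC box, 12.4% a TATA box, 6.02% the E-box and 3.17% the forkhead letters. The *Slc16a1* promoter held 1 E-box and 1 GC box, and that of *Slc15a2* held 1 GC box. AT content was 54.8% for *Slc28a2*, 61.6% for *Slc28a2b*, 54.8% for *Slc15a2* and 23.6% for *Slc16a1*, beside a median of 47.6% over all promoters. The other called members with a promoter were all under that median, at 35.2% for *Slc25a4* and *Slc4a8*, 25.2% for *Slc5a3*, 30.4% for *Slc9a7* and 36.4% and 31.2% for the 2 starts of *Slc12a7*, so that 6 of the 9 called members lay below it. The *Slc28a2* and *Slc28a2b* promoters were identical at 119 of 268 aligned columns, or 44.4%. A match is a run of letters and not a site, and binding was not measured.

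Across the set, 12 of 149 members, all of them carriers, differed between genotypes, that is, had an adjusted p below 0.05 by edgeR's quasi-likelihood test (Benjamini-Hochberg over the 12403 genes tested). That is 8.05%, beside 4.3% of all tested genes, of which 2.35% were higher and 1.95% lower in cKO. The count minimum of the set was not applied to all tested genes, so these shares are not matched for count. Of the called members, *Slc28a2b*, *Slc15a2* and *Slc9a7* met that minimum largely through the genotype in which they were higher. Whether carriers were called more often than other genes of like count was not tested, here or for the classes below. The called carriers divided evenly, with 6 higher and 6 lower. Those that fell were *Slc28a2b*, *Slc16a5*, *Slc25a4*, *Slc28a2*, *Slc16a1* and *Slc12a7*, and those that rose were *Slc15a2*, *Slc9a7*, *Slc26a11*, *Slc5a3*, *Slc2a3* and *Slc4a8*. The cKO libraries lay both above or both below the WT libraries in 82 of 149 members, 41 on each side, where 50.3% of all tested genes did so. The median log2 fold change was 0.02 for the set and -0.0015 for all tested genes, and the median absolute log2 fold change was 0.21 against 0.19. As a share of all gene counts the set took 0.830% in each WT library and 0.816% and 0.815% in the cKO libraries. With 2 libraries against 2, an exact permutation test of a single gene cannot go under 0.333, so that the calls rest on the spread edgeR shares across genes.

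**Figure D1:**
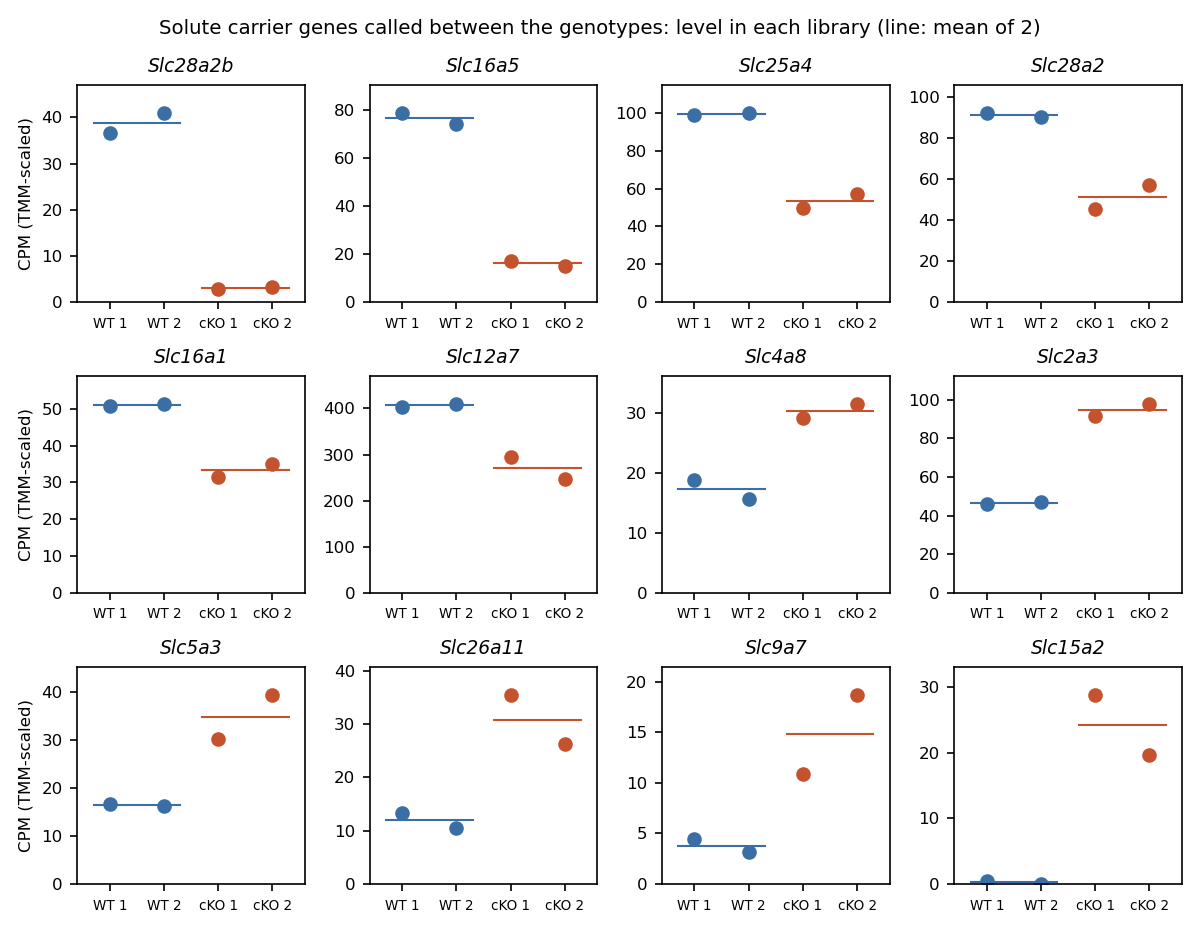
Level in CPM, on library sizes scaled by TMM (trimmed mean of M values), of the 12 called carriers in each of the 4 libraries, with a line at the mean of each genotype and each vertical axis from 0. No cKO point falls within the range of the WT points in any panel, and *Slc28a2b* shows the deepest fall while *Slc15a2* rises from 3 counts or fewer per WT library.

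Nucleoside carriers held the deepest fall. The concentrative nucleoside transporter family *Slc28* takes nucleosides, purine nucleosides above all in the case of *Slc28a2*, into the cell with sodium. It has 2 members in the set, which lie close together on chromosome 2 of GRCm38. *Slc28a2b* (chr2:122484941-122528040, plus strand), listed as Gm14085 in GENCODE M21, had 239 and 183 counts in WT 1 and WT 2 and 15 in each cKO library, or 36.6, 41, 2.86 and 3.19 CPM. Both cKO libraries were far below both WT libraries. Its mean level of 38.8 ± 3.14 CPM in WT (SD, n = 2) fell to 3.02 ± 0.233 CPM in cKO (SD, n = 2). The log2 fold change was -3.67, SE 0.21, with adjusted p = 7.2e-05 by edgeR's quasi-likelihood test, which is a fold of 0.0786 with a 95% interval from 0.0560 to 0.11.

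*Slc28a2* (chr2:122426477-122461137, plus strand) had the higher WT level of the pair per length, 21.6 against 7.76 CPM per kilobase. It had 602 and 401 counts in WT and 237 and 267 in cKO, or 92.1, 89.8, 45.2 and 56.8 CPM. The 2 genotypes did not overlap, with a log2 fold change of -0.84, an SE of 0.13 and an edgeR adjusted p = 0.0113. The near-identical parts of the pair make their split uncertain. Of all 50-base stretches in annotated transcripts, the length of the reads, 35.4% of those of *Slc28a2* and 30.3% of those of *Slc28a2b* also occur in another gene, for *Slc28a2* always in *Slc28a2b*. HTSeq by default leaves out reads that align to more than 1 place, which would leave both genes counted from their private parts. How such reads were handled in these counts was not checked.

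Between them lies *Bambi-ps1*, a pseudogene 5798 bases after *Slc28a2* and 17415 bases before *Slc28a2b*. It had 172 and 114 counts in WT and 41 in each cKO library, a log2 fold change of -1.65 with an edgeR adjusted p = 0.00302. All 3 genes on this stretch fell. The tested genes on the outer sides, *Shf* at 57315 bases and *Spata5l1* at 102585 bases, were not called, with log2 fold changes of -0.05 and -0.12.

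The equilibrative nucleoside transporters, which pass nucleosides down their gradient, were not called. *Slc29a1*, of the plasma membrane, was at 53.8, 52.4, 48.6 and 55.1 CPM in WT 1, WT 2, cKO 1 and cKO 2, so that the genotypes overlapped. Its log2 fold change of -0.04 had a fold interval from 0.802 to 1.18. *Slc29a3*, of lysosomes, was at 46.3, 45, 54.3 and 51.4 CPM, with both cKO libraries above WT, a log2 fold change of 0.21 and an adjusted p = 0.389 in the edgeR test. Per length of exon the vesicular nucleotide transporter *Slc17a9* and the nucleotide sugar carrier homologue *Slc35a4* were the highest of this class, and their log2 fold changes were -0.05 and -0.20. *Slc43a3*, which carries purine nucleobases, had the largest uncalled difference of the class, -0.47 with adjusted p = 0.469, at 11.8, 11.2, 5.72 and 11.1 CPM. The low value was in cKO 1, and the log2 fold change was -0.06 without that library and -1.01 without cKO 2. Over the whole class, 2 of 11 members fell, or 18.2% beside 1.95% of all tested genes, none rose, and the median log2 fold change was -0.05. Those 2 are the neighbours *Slc28a2* and *Slc28a2b*, which share sequence, and *Slc28a2b* met the count minimum largely through its WT counts.

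Monocarboxylate carriers had a negative log2 fold change in all 5 members, and 2 of the 5 passed the test and fell, where 1.95% of all tested genes were called lower. Some members of the family carry lactate, pyruvate and ketone bodies with a proton, and others carry aromatic amino acids or other substrates. The class follows the family number, and what each member carries was not tested. Summed over the family, the level was 201 and 190.0 CPM in WT and 92.2 and 99.5 CPM in cKO. *Slc16a5* alone gave 78.6 and 74.2 CPM of this sum in WT and 17.1 and 15.1 CPM in cKO. The median log2 fold change was -0.70, beside -0.0015 for all tested genes.

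*Slc16a5* (chr11:115462474-115474398, plus strand), which encodes MCT6, had the highest level of the family per length in WT, 20.7 CPM per kilobase. It had 514, 331, 90 and 71 counts in WT 1, WT 2, cKO 1 and cKO 2, or 78.6, 74.2, 17.1 and 15.1 CPM. It fell from a WT mean of 76.4 ± 3.15 CPM (SD, n = 2) to a cKO mean of 16.1 ± 1.46 CPM (SD, n = 2), a fold of 0.211 with a 95% interval from 0.170 to 0.263, and edgeR gave an adjusted p = 0.000102. The antisense transcript *Gm11695* overlaps 104 of its exonic bases and had 82, 70, 15 and 17 counts, at -2.11 on the log2 scale by edgeR (adjusted p = 0.00626). No source used here says whether counting used strand, so reads of the pair cannot be told apart where they overlap. The flanking genes *Armc7*, 1269 bases away, and *Kctd2* were not called, at -0.21 and 0.01.

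*Slc16a1* (chr3:104638668-104658462, plus strand) encodes MCT1, the widely expressed lactate and pyruvate carrier. It had 332 and 229 counts in WT and 165 in each cKO library, or 50.8, 51.3, 31.4 and 35.1 CPM. The fall was by 0.62 on the log2 scale, with an SE of 0.13 and an edgeR adjusted p = 0.0357, close to the threshold. *Slc16a3*, which encodes the lactate exporter MCT4 of glycolytic cells, was low throughout at 6.42, 6.05, 4.0 and 3.40 CPM. Its log2 fold change of -0.75 did not pass, with an edgeR adjusted p = 0.245 and 16 to 42 counts per library. *Slc16a6*, which encodes MCT7, was at 46.2, 42.1, 22.3 and 32.5 CPM with a log2 fold change of -0.70 and an adjusted p = 0.0754 in the edgeR test, and shares exonic sequence with the opposite strand of *Amz2* and *Arsg*. It was called lower in 3 of 10 other settings, without the low-count filter, with the replicate block and without cKO 2, and its log2 fold change was -0.45 without cKO 1 and -0.99 (edgeR adjusted p = 3.05e-05) without cKO 2. The last member, *Slc16a10*, an aromatic amino acid carrier named here after its values were seen to complete the family, was at 19.1, 16.4, 17.3 and 13.4 CPM, and its genotypes overlapped.

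**Figure D2:**
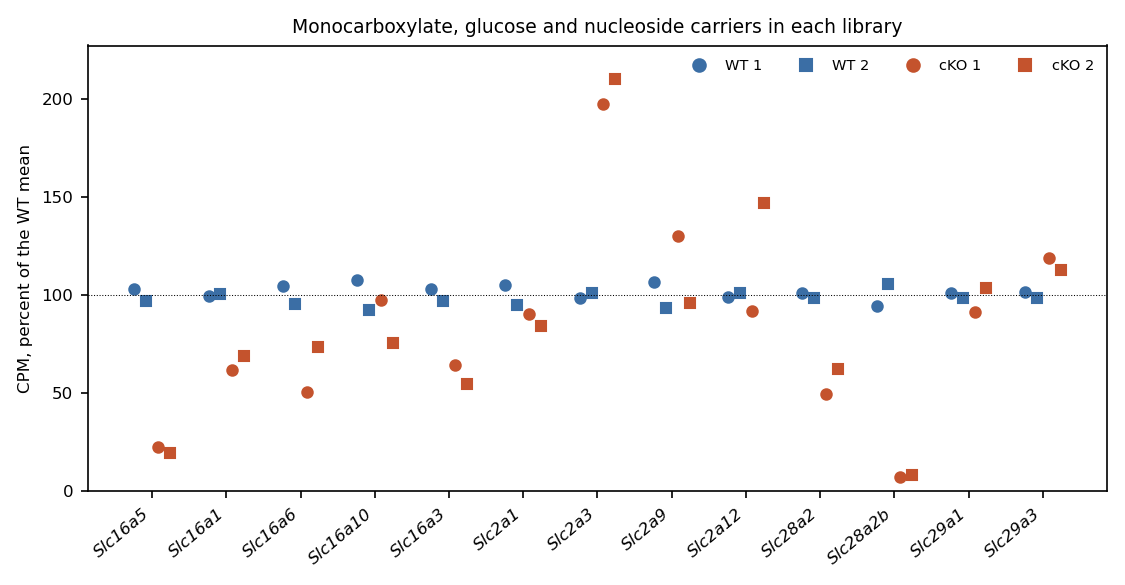
Level of each member of the monocarboxylate (*Slc16*), sugar (*Slc2*) and nucleoside (*Slc28*, *Slc29*) carrier families in each library, in CPM as a percentage of the mean of the WT libraries, with circles for replicate 1 and squares for replicate 2. *Slc16a5* stands at 22.4% and 19.8% and *Slc28a2b* at 7.37% and 8.22% in the cKO libraries, while *Slc2a3* stands at 197% and 210.4%.

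Among nutrient carriers 3 of 43, or 6.98%, rose and none fell, beside 2.35% and 1.95% of all tested genes, with a median log2 fold change of 0.09. The sugar carriers held 1 of the 3. *Slc2a3* (chr6:122727809-122801640, minus strand) encodes GLUT3, a glucose carrier of high affinity. It had 300 and 210 counts in WT and 481 and 460 in cKO, or 45.9, 47.1, 91.7 and 97.8 CPM. The genotypes were well apart, at 46.5 ± 0.824 CPM (SD, n = 2) and 94.7 ± 4.33 CPM (SD, n = 2), a rise of 2.04-fold with a 95% interval from 1.71 to 2.43 and an edgeR adjusted p = 0.00212. *Slc2a1*, which encodes GLUT1, the glucose carrier that activated T cells add to their surface, was at 52.5, 47.3, 45 and 42.1 CPM. It was not called, with a log2 fold change of -0.20, a fold interval from 0.713 to 1.06 and an adjusted p = 0.448. The *Slc2* family summed to 126 and 120 CPM in WT and 169 in each cKO library. Per kilobase of exon, *Slc2a1* and *Slc2a3* had mean levels of 14.2 and 6.41 CPM per kilobase in WT and of 12.4 and 13.1 CPM per kilobase in cKO.

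*Slc15a2* (chr16:36750177-36784962, minus strand) encodes PEPT2, a carrier of di- and tripeptides of high affinity. It had 3 counts in WT 1, none in WT 2, 151 in cKO 1 and 92 in cKO 2, or 0.459, 0, 28.8 and 19.6 CPM. The transcript was at or under the floor of 3 counts in both WT libraries and well above it in both cKO libraries. Scaled for depth, the summed counts of 243 and 3 stand in a ratio of 89.5, with an exact interval from 30.3 to 437 that covers counting error only, and the edgeR adjusted p was 0.000433. The tested neighbours *Ildr1*, 23373 bases away, and *Iqcb1*, 43423 bases away, did not pass, and *Ildr1* was at 37, 28, 4 and 13 counts, in the other direction.

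*Slc5a3* (chr16:92058322-92087473, plus strand) encodes the sodium-coupled carrier of myo-inositol, an osmolyte. It had 109, 72, 158 and 185 counts, or 16.7, 16.1, 30.1 and 39.3 CPM in WT 1, WT 2, cKO 1 and cKO 2. Both cKO libraries were higher, by 2.11-fold with a 95% interval from 1.59 to 2.80 and an edgeR adjusted p = 0.0138. The gene overlaps *Mrps6*, which was not called and had a log2 fold change of 0.25.

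The amino acid carriers that T cells are known to raise on activation were not called. *Slc7a5*, the light chain of the large neutral amino acid carrier LAT1, was at 63.6, 63.4, 48.8 and 43.6 CPM. Its log2 fold change of -0.46 came with an edgeR adjusted p = 0.0742 and a fold interval from 0.602 to 0.880, and it was called lower in 3 of 10 other settings, without the low-count filter, with the replicate block and without cKO 1. The heavy chain *Slc3a2* (CD98), which brings that light chain to the surface, was at 109, 119, 118 and 108 CPM, with a log2 fold change of -0.02. The light chain *Slc7a6* was at 59.2, 50.0, 50.5 and 46.1 CPM and the genotypes overlapped.

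*Slc1a5*, the glutamine and neutral amino acid exchanger ASCT2, was at 167, 189.8, 102 and 183 CPM. Only cKO 1 was low, and the log2 fold change of -0.32 had an SE of 0.22 and an edgeR adjusted p = 0.489. Without cKO 2 the same gene had a log2 fold change of -0.79 and without cKO 1 of 0.04, so its value turned on 1 library. The sodium-coupled glutamine carriers *Slc38a1* and *Slc38a2* were at 291 to 357 CPM and 230.4 to 263 CPM, and their log2 fold changes were 0.14 and 0.04. Of the 18 amino acid and peptide carriers of the *Slc1*, *Slc3*, *Slc6*, *Slc7*, *Slc15*, *Slc36*, *Slc38* and *Slc43* families 1 was called, *Slc15a2*, or 5.56% beside 4.3% of all tested genes. *Slc66a2*, listed as Pqlc1 in GENCODE M21 and not counted among the 18, was not called, with a log2 fold change of 0.18.

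Per length, the nutrient class was led by the choline carrier *Slc44a2*, the sugar carrier *Slc50a1* and *Slc1a5*, at 58.3, 49 and 38.5 CPM per kilobase averaged over genotypes. None of them was called. *Slc44a2* was at 471, 495, 571 and 486 CPM. The sugar phosphate carrier *Slc37a2* had the largest uncalled difference of the class, 0.68 with an edgeR adjusted p = 0.334, at only 15 to 38 counts per library.

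Ion carriers had 4 called members of 44, or 9.09% beside 4.3% of all tested genes, with *Slc9a7*, *Slc26a11* and *Slc4a8* higher and *Slc12a7* lower, and a median log2 fold change of 0.08. *Slc12a7* (chr13:73733094-73816754, plus strand) encodes the potassium chloride cotransporter KCC4, which exports both ions when cells swell. It had 2642, 1830, 1549 and 1165 counts, or 404, 410.0, 295 and 248 CPM. Its WT mean of 407 ± 4.19 CPM (SD, n = 2) fell to a cKO mean of 271 ± 33.6 CPM (SD, n = 2), a fold of 0.667 with a 95% interval from 0.560 to 0.795 and an edgeR adjusted p = 0.0238. The next tested gene before *Slc12a7* was *Slc6a19*, a neutral amino acid carrier under the count minimum of the set, with 14, 9, 0 and 1 counts. It was also called lower, with adjusted p = 0.0338, and was the 1 called of the 12 tested carriers that missed the minimum, beside 4.3% of all tested genes. The next tested gene on the other side, *Brd9*, was not called, with a log2 fold change of -0.05.

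*Slc26a11* (chr11:119355557-119381079, plus strand), an anion carrier of the sulfate family, had 87, 47, 186 and 123 counts, or 13.3, 10.5, 35.4 and 26.1 CPM. It rose 2.56-fold with a 95% interval from 1.83 to 3.58 and an edgeR adjusted p = 0.0112. *Sgsh*, which starts 21 bases away, was not called, with a log2 fold change of 0.21. *Slc4a8* (chr15:100761747-100823968, plus strand), a sodium-driven chloride bicarbonate exchanger that raises cell pH, was at 18.8, 15.7, 29.2 and 31.5 CPM from 70 to 153 counts. Its rise of 1.74-fold, interval 1.34 to 2.26, had an adjusted p = 0.0339 in the edgeR test.

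*Slc9a7* (chrX:20105754-20291807, minus strand), a sodium or potassium proton exchanger of the trans-Golgi network, had 29, 14, 57 and 88 counts, or 4.44, 3.14, 10.9 and 18.7 CPM. It rose by 1.92 on the log2 scale (SE 0.35), and edgeR gave an adjusted p = 0.0195. It was the 1 called of 7 members on the X chromosome, or 14.3% beside 4.3% of all tested genes, and its genotype difference cannot be told apart from the sex-linked pattern. The nearest tested gene, *Rp2*, 72674 bases away, was not called, with a log2 fold change of 0.32 and overlapping genotypes. The nearest on the other side, *Kdm6a*, 1825818 bases away, was called lower with a log2 fold change of -0.74.

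Several further ion carriers were not called. The phosphate carrier *Slc20a1* had a log2 fold change of 0.02, the zinc exporter *Slc30a1* -0.04 and the zinc importer *Slc39a1* 0.11. *Slc26a10* gave the highest level per length of the class, 115 CPM per kilobase, but 715 of its exonic bases lie opposite *B4galnt1*, and reads of the pair cannot be told apart there.

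Of the ion carriers, 2 members are known above all from macrophages or red cells. *Slc40a1* (ferroportin), the iron exporter that macrophages express highly, was at 3.52, 4.26, 16.2 and 5.95 CPM. The high value was in cKO 1, the library with the most B cell and myeloid signal, and the log2 fold change of 1.54 had an edgeR adjusted p = 0.112. It was 0.63 without cKO 1 and 2.08 without cKO 2. *Slc4a1*, the anion exchanger of red cells, had 18, 74, 0 and 32 counts, the same order of libraries as the summed erythroid markers at 101, 314, 10.1 and 222 CPM, and its genotypes overlapped. *Slc11a1*, the macrophage metal carrier, missed the minimum with 8, 3, 21 and 2 counts. The part of other cells in these values was not tested.

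**Figure D3:**
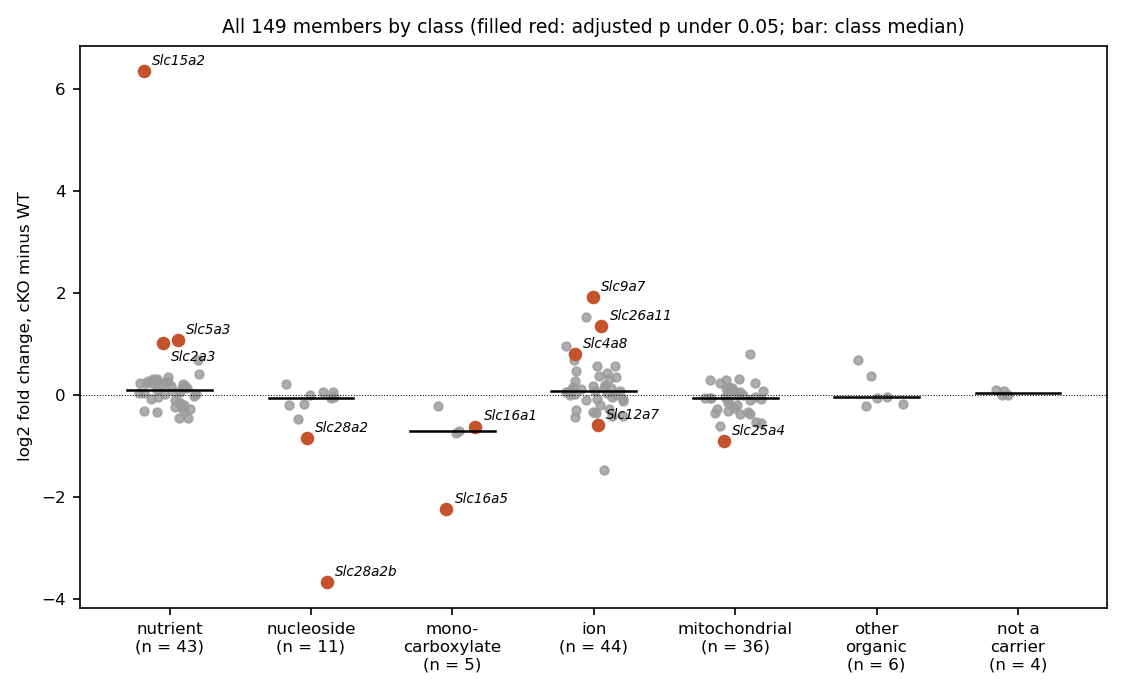
Log2 fold change, cKO minus WT, of each of the 149 members in 7 classes, with called members in red and named and a bar at each class median. All 5 monocarboxylate carriers lie under 0, while the nutrient, ion and mitochondrial classes are centred near 0, with medians of 0.09, 0.08 and -0.05.

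Mitochondrial carriers had 1 called member of 36, or 2.78%, under the 4.3% of all tested genes. *Slc25a4* (chr8:46206797-46211284, minus strand) encodes ANT1, an exchanger of ADP and ATP across the inner membrane. It had 646, 447, 260 and 268 counts, or 98.8, 100.2, 49.5 and 57.0 CPM. Both cKO libraries were clearly under both WT libraries, at 99.5 ± 0.951 CPM (SD, n = 2) against 53.3 ± 5.25 CPM (SD, n = 2). The fall to 0.535-fold had a 95% interval from 0.445 to 0.643 and an edgeR adjusted p = 0.00496. Its paralogue *Slc25a5* (ANT2), on X, was the most abundant carrier of the family per length at 111 CPM per kilobase, and was at 208, 199, 177 and 145 CPM. Its log2 fold change of -0.34 did not pass, with adjusted p = 0.15, though it was called lower with the replicate block and without cKO 1, and 33.8% of its 50-base stretches also occur in other genes.

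The phosphate carrier *Slc25a3* was at 225, 226, 218 and 202 CPM, a log2 fold change of -0.10. *Slc25a27* had the largest uncalled difference, 0.81 with an edgeR adjusted p = 0.221, from 23 to 49 counts. This value turned on the cKO libraries, at 0.46 without cKO 2 and at 1.10, with an edgeR adjusted p = 0.0425, without cKO 1. Over the class the cKO libraries were both below WT in 14 members and both above in 4, and the median log2 fold change was -0.05. Of all tested genes, 25.4% were below and 24.8% above in this sense.

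The 6 carriers of other organic molecules and the 4 genes that are not carriers held no call. *Slc14a1*, the urea carrier, led the first group per length and was at 49.3, 50.9, 54.5 and 42.7 CPM, with a log2 fold change of -0.04. *Slc22a15* had the largest difference, 0.68 with an edgeR adjusted p = 0.223. *Slc9a3r1*, the highest of all 149 per length at 176 CPM per kilobase, was at 357, 319, 367 and 312 CPM and its genotypes overlapped.

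At the edge of the count rule, the members just inside were *Slc37a2*, *Slc16a3* and *Slc25a13*, with 103, 106 and 108 summed counts, and the genes just outside were *Slc2a8*, *Slc18a2* and *Slc25a33*, with 99, 97 and 93. The log2 fold changes of the latter were 0.52, -0.35 and 0.47.

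Genes that work with the carriers were taken as a list of 41, of which 38 were tested and 4, or 10.5%, were called, 3 higher and 1 lower, beside 4.3% of all tested genes. The list was chosen with earlier results of these data known. *Mt1*, *Mt2* and *Asns* were too low to be tested. *Ldhb*, the subunit of lactate dehydrogenase that favours the conversion of lactate to pyruvate, was at 19.9, 17, 47.1 and 47.4 CPM, a log2 fold change of 1.34 with an edgeR adjusted p = 0.00212. *Ldha* was at 409, 378, 425 and 378 CPM and the genotypes overlapped. *Txnip*, which draws glucose carriers off the surface, was at 1111, 1055, 2323 and 1629 CPM and rose by 0.87 on the log2 scale with an adjusted p = 0.0268 in the edgeR test, a call that was lost without WT 2 (adjusted p = 0.279). *Mcu*, the pore of the mitochondrial calcium uniporter, was at 35.2, 40.1, 66.3 and 70.4 CPM and also rose by 0.87, with adjusted p = 0.00804 in edgeR. *Tfrc*, the transferrin receptor that brings in iron, fell by 0.62 on the log2 scale from 53.4 and 53.3 CPM to 32.4 and 37.2 CPM, with an edgeR adjusted p = 0.0366. It was not called by DESeq2, without WT 1 or without WT 2.

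The chaperones that carry monocarboxylate carriers to the surface were not called. Basigin (*Bsg*) was at 139, 120.3, 141 and 112 CPM and embigin (*Emb*) at 386, 411, 438 and 372 CPM, with log2 fold changes of -0.03 and 0.03. *Myc*, which drives carrier genes in activated T cells, had a log2 fold change of -0.46 with an edgeR adjusted p = 0.136, and the kinase gene *Sgk1* one of -0.75 with adjusted p = 0.139. Hexokinase genes *Hk1* and *Hk2* had log2 fold changes of 0.00 and -0.68, the latter at under 6 CPM in every library.

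**Figure D4:**
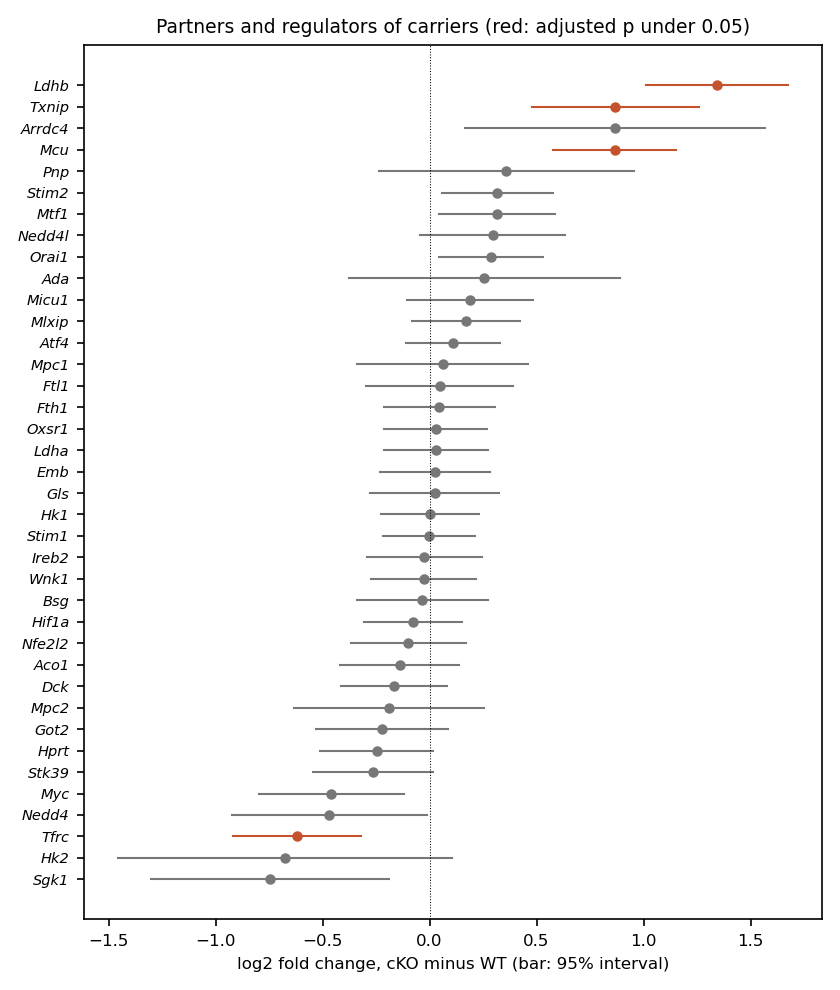
Log2 fold change, cKO minus WT, with its 95% interval for the 38 tested partner and regulator genes, ordered by value, in red where the adjusted p was under 0.05. *Ldhb*, *Txnip* and *Mcu* lie above 0 and *Tfrc* below, while *Bsg* and *Emb* lie near 0.

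The calls were set against the libraries they came from. *Slc28a2b*, *Slc16a5*, *Slc25a4*, *Slc2a3* and *Slc15a2* were called in all 10 other settings of scaling, filter, test, a block for the replicate number, left-out library and left-out sex chromosomes. Without WT 2 only these 5 remained called, with 1.39% of all tested genes, and the directions of all 12 were kept. Without cKO 2 there were 28 called members, with 13.8% of all genes called. *Slc16a6*, *Slc1a5*, *Slc38a1*, *Slc40a1*, *Slc43a3*, *Slc44a2* and *Slc4a1* were called in that setting and not with all 4 libraries. *Slc16a1* was lost in 3 settings, *Slc12a7* and *Slc4a8* in 2 each, and *Slc28a2*, *Slc5a3*, *Slc26a11* and *Slc9a7* only without WT 2. In data simulated at these depths for the whole table, 78.6% of genes changed 2-fold and 26.9% of genes changed 1.5-fold were recovered, so that smaller differences of carriers were often not detectable here.

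**Figure D5:**
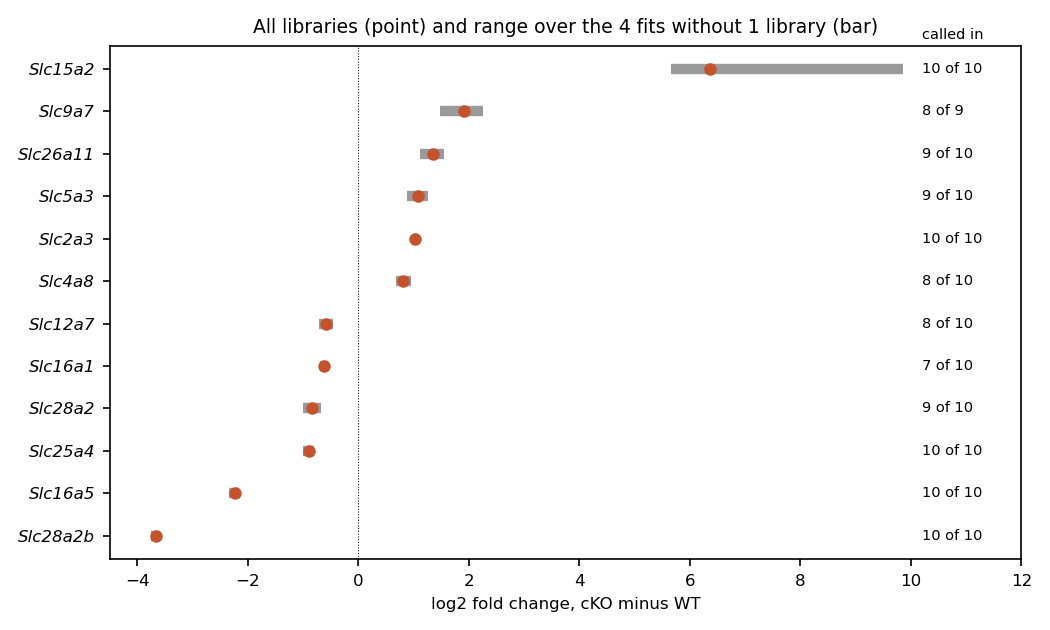
Log2 fold change, cKO minus WT, of the 12 called members with all 4 libraries (point) and the range over the 4 fits that leave out 1 library (bar), with the number of settings that kept the call at the right. Every bar stays on its side of 0. The bar of *Slc15a2* runs from 5.65 to 9.87, where the upper end is a fit against a lone WT library with no count and so no measured fold.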

How the data were processed

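RNA from splenic CD4+ T cells was sequenced in 2 WT and 2 *Satb1* cKO libraries as 50-base reads on the HiSeq2500. The authors aligned reads to mm10 with HISAT2 2.1.0 and deposited one table of raw HTSeq counts per gene symbol and library, made with HTSeq 0.11.1 by the submitters' processing notes and not scaled for depth. The annotation and strand setting are not given in the sources used here. HTSeq summary lines, 59.4% to 64.5% of singly aligned reads for those outside features, were left out of library sizes and tests.

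Carriers were grouped by substrate from their family number, with single genes moved where their known substrate differs. The members and gene lists were chosen with earlier results of these data known. Counts were tested with the edgeR 4.0.16 quasi-likelihood F test in R 4.3.3 (TMM, filterByExpr, no covariate, two-sided) with Benjamini-Hochberg adjustment over 12403 genes, and genes with an adjusted p below 0.05 were called. CPM is scaled to 1e+06 counts on TMM library sizes. The SE is the absolute log2 fold change over the square root of F, intervals are at a level of 0.95, and floors and counting intervals cover counting error only. Positions and exonic lengths came from GENCODE M21 (GRCm38, which is mm10) for 146 members and from RefSeq GRCm38.p6 for 3. The common biological coefficient of variation was 10.3%. The chi-square over its degrees of freedom between replicates was 2.99 in WT and 7.07 in cKO, above what counting noise alone would give, so each library was counted. The procedure was tested on simulated counts. DESeq2 1.42.0, other scalings, no filter, a replicate block, each library left out and the X and Y chromosomes left out were alternatives. Plots used matplotlib 3.10.9 in Python 3.11.15.

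Genes were named by rule: all called members, in each class the 3 highest per exonic length and the uncalled member with the largest difference, a fixed list of 26 carriers, and the 3 genes on either side of the count minimum. A few genes that the rule names are not reported here.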

Additional observations from a re-analysis of the deposited data

How the results depend on the processing

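The 12 called members stayed 12 under RLE size factors and under total gene counts, and the directions of all 12 were kept in every alternative that could fit them. DESeq2 called 10, without *Slc16a1* and *Slc4a8*, and leaving out the X and Y chromosomes left 11, since *Slc9a7* was then not fitted. A minimum of 200 summed counts left 11, and leaving out the 4 genes that are not carriers left 12. Without the low-count filter 18 were called and all genes called went from 533 to 1367. Replicate numbers do not name shared animals, and same-numbered libraries had deviations correlated at 0.0642, so the replicate block was an alternative only: with it 18 members and 1165 genes were called, among them the 12. Beyond these, *Slc16a6*, *Slc40a1*, *Slc4a1*, *Slc4a7* and *Slc7a5* were called both with the block and without the filter, and of the 2 settings *Slc25a5* was called only with the block and *Slc39a8* only without the filter. Leaving out a library in turn gave 5 to 28 called members (5 without WT 2, 20 without cKO 1, 28 without cKO 2) and 2 to 7 called partner genes, with a lone library assumed to vary like the others; the cause was not tested.

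Of the uncalled members, those named by rule were followed through the alternatives, and 17 values changed sign, 7 of them in *Slc9a3r1* and *Slc2a4rg-ps*, which are not carriers. Under total gene counts *Slc2a4rg-ps* went to 0.000025, under DESeq2 to 0.000527, and without the filter *Slc9a3r1* went to -0.000037. Over the fits that each left out 1 library, the log2 fold changes ranged from -0.084 to 0.049 for *Slc3a2*, -0.79 to 0.043 for *Slc1a5*, -0.014 to 0.29 for *Slc38a1*, -0.060 to 0.14 for *Slc38a2*, -0.13 to 0.047 for *Slc29a1*, -0.11 to 0.14 for *Slc20a1*, -0.075 to 0.0030 for *Slc30a1*, -0.12 to 0.12 for *Slc9a3r1*, -0.24 to 0.20 for *Slc2a4rg-ps* and -0.23 to 0.13 for *Slc14a1*. *Slc4a1* ranged from -8.60, fitted against a lone cKO library with no count and so no bound, to 0.26. Depth limits low carriers, since a gene at 3 counts or fewer in a library stands at 0.458 to 0.667 CPM or less.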
